A study of Arabidopsis thaliana with 22 samples.

Results

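The CYP86 fatty acid hydroxylases of Arabidopsis thaliana are cytochrome P450 enzymes, and 7 of their genes were followed here among the 33323 genes of the count table: CYP86A1, CYP86A2, CYP86A4, CYP86A7, CYP86A8, CYP86B1 and CYP86B2. They were picked by gene identifier as named members of the family. Each was looked up in 22 bulk mRNA libraries from the upper primary root of 14-day-old seedlings. Wild type (WT) was the accession Col-0, and the other genotype, labelled myb67, carried the allele myb67-1 of MYB67, a transcription factor gene, in the Col-0 background. Neither genotype received a treatment, and both were sown together. There were 6 libraries per genotype in experiment 1 and 5 per genotype in experiment 2. A library came from 1.5 cm of root below the hypocotyl, freed of lateral roots and pooled over about 40 seedlings. The labels describe 1 mutant allele and no complemented line.

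An omega-hydroxylase of this family puts a hydroxyl group on the end carbon of a fatty acid. The omega-hydroxy acids and the diacids made from them are joined with glycerol into polyesters. Suberin is the polyester of the endodermis and of the phellem, the cork layer that replaces the outer tissues of a thickening root, and cutin is the polyester of the shoot epidermis. Glycerol-3-phosphate acyltransferases (GPATs) act on the hydroxylated acyl chains, and ABC transporters are needed to build up the polymer outside the cell. CYP86A1 and CYP86B1 are known for root suberin, CYP86B1 for its very-long-chain monomers. CYP86A2, CYP86A4 and CYP86A8 are known mainly from cutin and the shoot surface.

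The 7 genes share the stretch that codes for the haem-binding loop of a P450, whose cysteine holds the haem iron. These 30 bases are shown because they mark the genes as P450 genes and show how far the members have drifted apart in this stretch. They are read 5′ to 3′ from the coding sequence in RefSeq TAIR10.1, and the capitals mark the cysteine codon.
CYP86A1: ttcaacgccggaccaaggactTGCttggga
CYP86A2: tttaacgccggacctaggatcTGTctagga
CYP86A4: ttcaatgctggaccaaggatcTGCttgggg
CYP86A7: ttcaatgccggtccacggattTGTctaggc
CYP86A8: ttcaatgctggccctaggatcTGTctgggt
CYP86B1: tttaacggtggtccacgccttTGTcttggc
CYP86B2: ttcaatggtggtcctcggctaTGTctaggc
The same base stood in all 7 genes at 15 of the 30 positions. CYP86A4 shared 25 of its 30 bases with CYP86A1, the most of any member, while CYP86B2 shared 17 and CYP86B1 shared 18. Over the whole coding sequence the closest pairs were CYP86A2 with CYP86A4, at 83.2% of aligned bases, and CYP86B1 with CYP86B2, at 79.7%. CYP86A1 shared between 60.6% and 67.6% with each other member. Exact sequence seldom recurs between members at this divergence. Of the 50-base windows in the annotated exons, 1 of 2166 in CYP86A2 and 1 of 2274 in CYP86A4 had more than 1 exact match in the genome, and none did in the other 5 genes.

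In TAIR10.1 coordinates, CYP86A1 (AT5G58860) lies at chr5:23765791-23768111 on the minus strand, CYP86B1 (AT5G23190) at chr5:7803141-7805968 on the minus strand and CYP86B2 (AT5G08250) at chr5:2653554-2655870 on the minus strand. CYP86A2 (AT4G00360) lies at chr4:160643-163023 and CYP86A4 (AT1G01600) at chr1:218834-221286, both on the plus strand. CYP86A7 (AT1G63710) lies at chr1:23632178-23634073 and CYP86A8 (AT2G45970) at chr2:18912095-18914739, both on the minus strand. CYP86A7 and CYP86A8 have 1 annotated exon and the other 5 genes have 2. The annotated span of CYP86A2 overlaps the transporter gene ANTR2 by 127 bases on the opposite strand and a long noncoding RNA gene, AT4G03585, that is not among the counted genes. Whether strand was used in counting is not stated in the labels, so reads from the overlapping ends cannot be told apart. The other 6 genes overlap no annotated gene.

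The libraries of experiment 1 held 3705515 to 17727642 counts each, and those of experiment 2 held 23190477 to 32091009. Levels below are counts scaled by library and TMM factor (CPM). Fold changes compare libraries labelled myb67 with WT, and their standard error (SE) is an approximate one taken from the edgeR test. MYB67 itself had a median of 6.62 CPM (5.95 to 7.18) in WT and 10.9 CPM (highest 14.6) under the mutant label in experiment 1. In experiment 2 the medians were 11.6 CPM (6.68 to 13.6) and 17.2 CPM (14.6 to 23.8). The targeted gene was therefore not lower but higher under the mutant label (log2 fold change 0.79, SE 0.11, edgeR adjusted p = 6.89e-05). What the allele does to the transcript is not in the labels, and each rise or fall given here refers to the libraries that carry the label. In whole roots, fewer cells of a type and less RNA per cell cannot be told apart.

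CYP86A1 was the most abundant member in every group. Per kilobase of annotated exon it stood at 136 CPM per kb in WT of experiment 1, which was 62.2% of the summed level of the 7 genes. It made up 65.2% in libraries labelled myb67 of that experiment, 72.2% in WT of experiment 2 and 76.8% in libraries labelled myb67 of experiment 2. No library of another member reached the lowest CYP86A1 library. The next places were taken by CYP86A2 and CYP86B1, in an order that differed between the experiments. In experiment 1, CYP86A2 had 29.9 CPM per kb in WT and CYP86B1 had 28.1, with overlapping libraries. In experiment 2, CYP86B1 led with 29.8 CPM per kb against 19.9 in WT, with no overlap. CYP86A8 followed at 12.1 to 14.2 CPM per kb over the 4 groups. CYP86A4 and CYP86B2 were lower, with 3.21 to 7.04 and 3.16 to 5.32 CPM per kb, and in libraries labelled myb67 of experiment 2 their ranges overlapped. CYP86A7 was last, at or below 0.0633 CPM per kb.

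**Figure D1:**
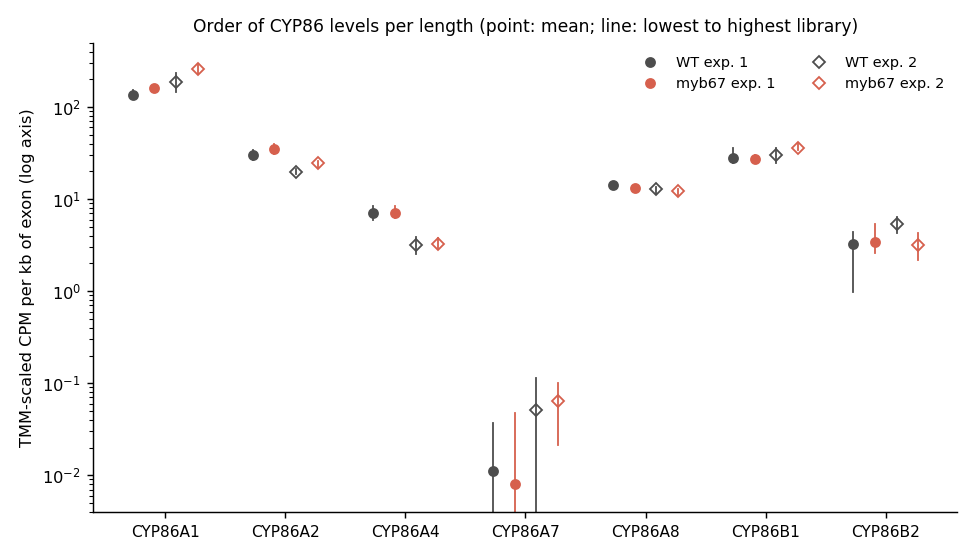
Mean level of each CYP86 gene per kilobase of annotated exon (TMM-scaled CPM per kb, log axis) in the 4 groups of genotype and experiment, with a line from the lowest to the highest library, cut off at the axis where a library is at 0. CYP86A1 lies above the other genes in every group, and CYP86A7 lies more than an order of magnitude below the next gene.

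The comparison of the genotypes asks which hydroxylases differ in the libraries labelled myb67. CYP86A1 and CYP86A2 rose, while CYP86A4, CYP86A8, CYP86B1 and CYP86B2 did not pass the test over both experiments. CYP86A7 was too low to be tested. The count of 2 called among 6 tested members stands beside 326 of 21683 genes called over the whole table, which is 1.5%, and the calls were 0.816% of all genes in the direction of the members, higher, and 0.687% in the other.

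CYP86A1, the omega-hydroxylase of root suberin, had 285, 269, 235, 253, 252 and 228 CPM in WT replicates 1 to 6 of experiment 1. The libraries labelled myb67 of experiment 1 had 301, 321, 301, 271, 297 and 304 CPM, so that 5 of the 6 exceeded the highest WT library. In experiment 2, WT had 383, 357, 443, 274 and 271 CPM and libraries labelled myb67 had 467, 485, 537, 517 and 427 CPM. There 4 of 5 exceeded the highest WT library, the ranges overlapped by 1 library of each genotype, and WT replicates 4 and 5 were the low end. In experiment 1 the means were 253 ± 21.3 CPM in WT and 299 ± 16.2 CPM under the mutant label (SD, n = 6). In experiment 2 they were 345 ± 73.6 CPM and 487 ± 42.9 CPM (SD, n = 5). The fit over both gave a log2 fold change of 0.36 (SE 0.07, 1.28-fold, edgeR adjusted p = 0.00727). It was 0.24 in experiment 1 (SE 0.10, edgeR adjusted p = 0.422) and 0.50 in experiment 2 (SE 0.10, edgeR adjusted p = 0.0115). The difference between the experiments, 0.25, did not pass (95% interval -0.04 to 0.55, edgeR adjusted p = 0.631). For that difference 0 of the 6 tested members were called, beside 0.0692% of all genes. The members with an unadjusted edgeR p under 0.05 for it numbered 1, CYP86B2, and by DESeq2 0 passed.

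CYP86A2 is known from the leaf cuticle of the shoot, where its mutant has an altered cutin. Its level in WT of experiment 1 was 75.8, 59.6, 66.4, 66.3, 67.4 and 62.2 CPM. The libraries labelled myb67 had 79.9, 86.9, 79.0, 69.0, 74.0 and 73.0 CPM, and WT replicate 1 was the WT library that overlapped with them. In experiment 2 the ranges did not overlap: WT had 43.7, 41.9, 46.6, 43.5 and 45.2 CPM, and libraries labelled myb67 had 48.5, 55.8, 54.4, 57.8 and 53.6 CPM. How many of all genes separate in this way was not counted. The fit over both experiments put its log2 fold change at 0.26 (SE 0.04, 1.19-fold, edgeR adjusted p = 9.05e-04), the smaller of the 2 called changes in size and the one with the smaller SE. It was 0.23 in experiment 1 (SE 0.06, edgeR adjusted p = 0.0982) and 0.29 in experiment 2 (SE 0.06, edgeR adjusted p = 0.0178). ANTR2, which overlaps its end, had 0.08 (SE 0.07, edgeR adjusted p = 0.991).

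By experiment, 0 of the 6 tested members were called in experiment 1, where 0.623% of all genes were. There 2 members, CYP86A1 and CYP86A2, had an unadjusted edgeR p under 0.05, and by DESeq2 CYP86A2 passed (adjusted p = 0.0153). Without WT replicate 1 of experiment 1, CYP86A2 passed in edgeR as well (adjusted p = 0.0362). In experiment 2, 2 of 6 were called, CYP86A1 and CYP86A2, beside 1.33% of all genes. The call of CYP86A2 there was lost without WT replicate 2, WT replicate 4 or replicate 4 labelled myb67 of experiment 2 (edgeR adjusted p up to 0.0622), and that of CYP86A1 was lost when experiment 2 was fitted on its own (edgeR adjusted p = 0.188). With no term for the experiment both calls over both experiments were lost (edgeR adjusted p of 1 in each).

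**Figure D2:**
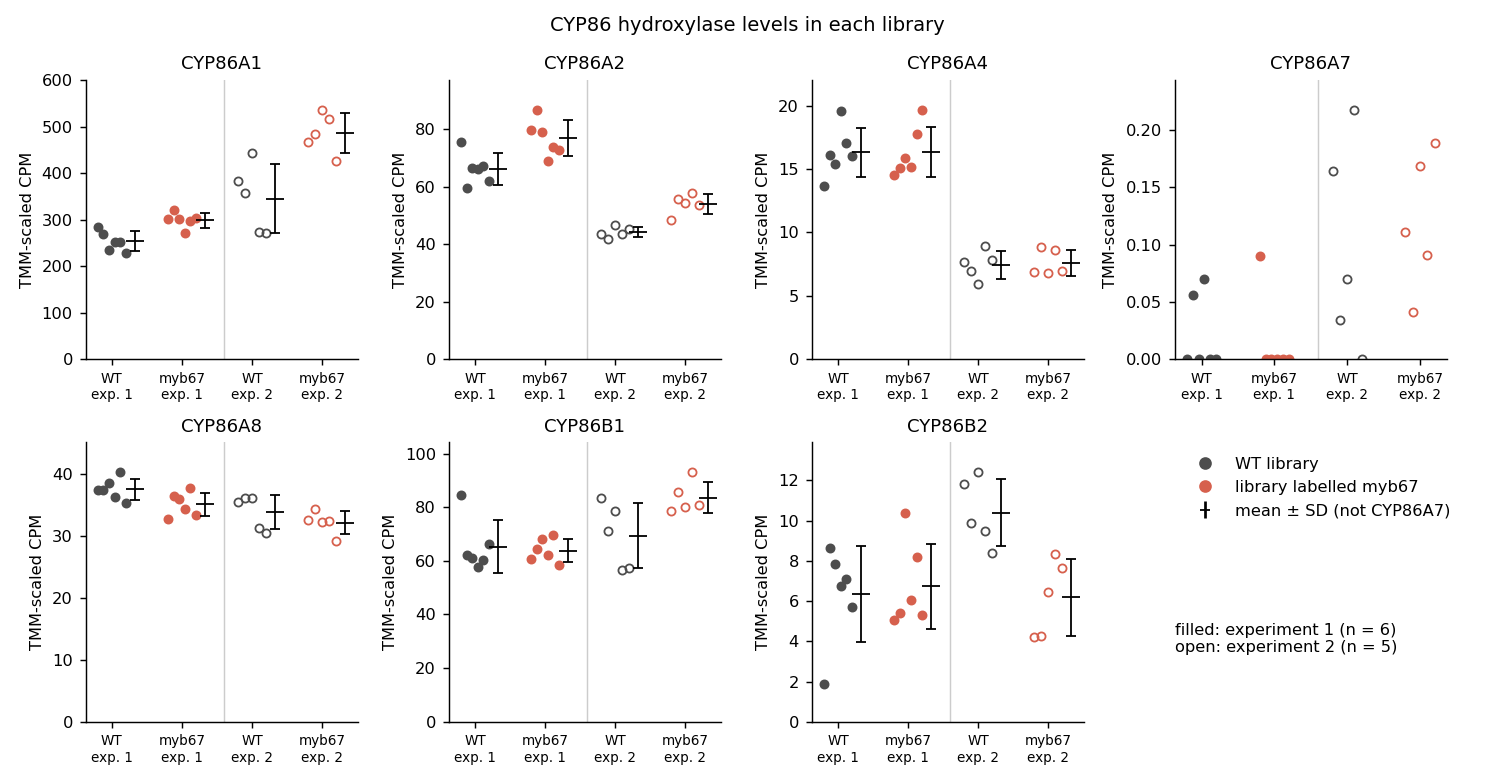
Level of each CYP86 gene in every library (TMM-scaled CPM, linear axes from 0) by genotype and experiment, with the mean and SD of each group except for CYP86A7. In experiment 2 the genotypes separate for CYP86A2, with the mutant label on top, and for CYP86B2, with WT on top. CYP86B2 was not called there (edgeR adjusted p = 0.102), and the share of all genes that separate was not counted.

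CYP86B1, the hydroxylase of very-long-chain suberin monomers, had 84.5, 62.1, 61.1, 57.7, 60.2 and 66.3 CPM in WT of experiment 1, with replicate 1 apart from the others. The libraries labelled myb67 had 58.3 to 69.7 CPM, within the WT range. In experiment 2, WT had 83.3, 71.3, 78.5, 56.6 and 57.2 CPM and libraries labelled myb67 had 78.5, 85.5, 80.0, 93.0 and 81.0 CPM. WT replicates 4 and 5 were again low, and 2 of the 5 libraries labelled myb67 exceeded the whole WT range. The log2 fold change was 0.12 over both experiments (SE 0.07, edgeR adjusted p = 0.870), with a 95% interval of -0.03 to 0.28. It was -0.01 in experiment 1 (edgeR adjusted p = 1) and 0.27 in experiment 2 (SE 0.10, edgeR adjusted p = 0.331), and the difference of 0.28 did not pass (edgeR adjusted p = 0.574).

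CYP86B2 is the nearest relative of CYP86B1 in sequence. Its level in WT of experiment 1 was 1.90, 8.64, 7.86, 6.76, 7.12 and 5.71 CPM, and replicate 1, with 5 counts, was the low library. The libraries labelled myb67 had 5.06, 5.39, 10.4, 6.04, 8.19 and 5.29 CPM, which overlapped with WT. In experiment 2 the ranges did not overlap, with 11.8, 9.89, 12.4, 9.48 and 8.37 CPM in WT and 4.22, 4.27, 6.43, 8.32 and 7.66 CPM in libraries labelled myb67. The highest library labelled myb67 and the lowest WT library there were almost equal. The log2 fold change in experiment 2 was -0.74 (SE 0.21, edgeR adjusted p = 0.102), and it passed once replicates were paired (replicate block in experiment 2 only, log2 fold change -0.77, edgeR adjusted p = 0.0241). It also passed by limma-voom (adjusted p = 0.0196) and with the replicate block in both experiments (edgeR adjusted p = 0.0268). Without the 3 libraries of fewest counts the edgeR adjusted p was 0.0493, and without WT replicate 1 of experiment 1 it was 0.0499. The remaining settings did not pass, with an adjusted p between 0.0506, by DESeq2, and 0.188, by edgeR with experiment 2 on its own. In experiment 1 the fitted value was -0.08 (SE 0.23, edgeR adjusted p = 0.995), while the mean level was 6.33 CPM in WT and 6.74 CPM under the mutant label, so no direction is given there. Without the 3 libraries of fewest counts it was -0.29 (edgeR adjusted p = 0.816). Over both experiments the fit gave -0.44 (SE 0.17, edgeR adjusted p = 0.398), and the difference between experiments did not pass (edgeR adjusted p = 0.560). The endodermis markers summed to 51.9, 58.9 and 49.3 CPM in WT replicates 2, 4 and 5 of experiment 2 and to 14.1 and 16.1 CPM in replicates 1 and 3, where CYP86B2 was highest. Under the mutant label they summed to 10.9, 50.9, 17.3, 44.1 and 20.8 CPM in replicates 1 to 5. The sum was lowest in replicate 1, where CYP86B2 was lowest, and 44.1 CPM in replicate 4, where CYP86B2 was highest. It was highest in replicate 2, where CYP86B2 had 4.27 CPM, and 20.8 CPM in replicate 5, where CYP86B2 had 7.66 CPM, so no direction is given. The part of these markers in the result was not tested.

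The genes of the shoot cuticle other than CYP86A2 moved little. CYP86A8, whose mutant is known as lacerata, had 35.3 to 40.2 CPM in WT and 32.7 to 37.6 CPM in libraries labelled myb67 of experiment 1, and 30.5 to 36.1 and 29.1 to 34.3 CPM in experiment 2. The ranges overlapped in both experiments. Its log2 fold change was -0.09 over both (SE 0.04, edgeR adjusted p = 0.618). CYP86A4, known from the cutin of flowers, had 13.7 to 19.6 CPM in WT and 14.5 to 19.7 CPM in libraries labelled myb67 of experiment 1, and 5.93 to 8.90 and 6.77 to 8.82 CPM in experiment 2. Its log2 fold change was 0.01 (SE 0.08, 95% interval -0.15 to 0.17, edgeR adjusted p = 1). CYP86A7, whose product works as an omega-hydroxylase when made in foreign host cells, had 0 or 1 count per library in experiment 1 and was at 0 in 9 of those 12 libraries. In experiment 2 it had 0 to 6 counts in WT and 1 to 5 in libraries labelled myb67. A floor of 3 counts equals 0.0935 to 0.810 CPM, depending on the library, so no difference was detectable at this depth.

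The same-numbered libraries of experiment 2 were read as pairs, since they deviate together, although some differently numbered libraries do so as well. CYP86A1 was higher in the library labelled myb67 in 5 of 5 pairs, by 1.22, 1.36, 1.21, 1.89 and 1.58 times. CYP86A2 was higher in 5 of 5, by 1.11 to 1.33 times. CYP86B1 was higher in 4 of 5, with ratios of 0.943 to 1.64 and replicate 1 the exception. CYP86B2 was lower in 5 of 5, with ratios of 0.357, 0.432, 0.519, 0.877 and 0.915, and CYP86A8 was lower in 4 of 5. The largest ratio of CYP86A1 and of CYP86B1 fell in replicate 4, in which CYP86B2 was among the nearest to 1. The share of all genes that go the same way in every pair was not counted, so these pair counts are a description only.

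**Figure D3:**
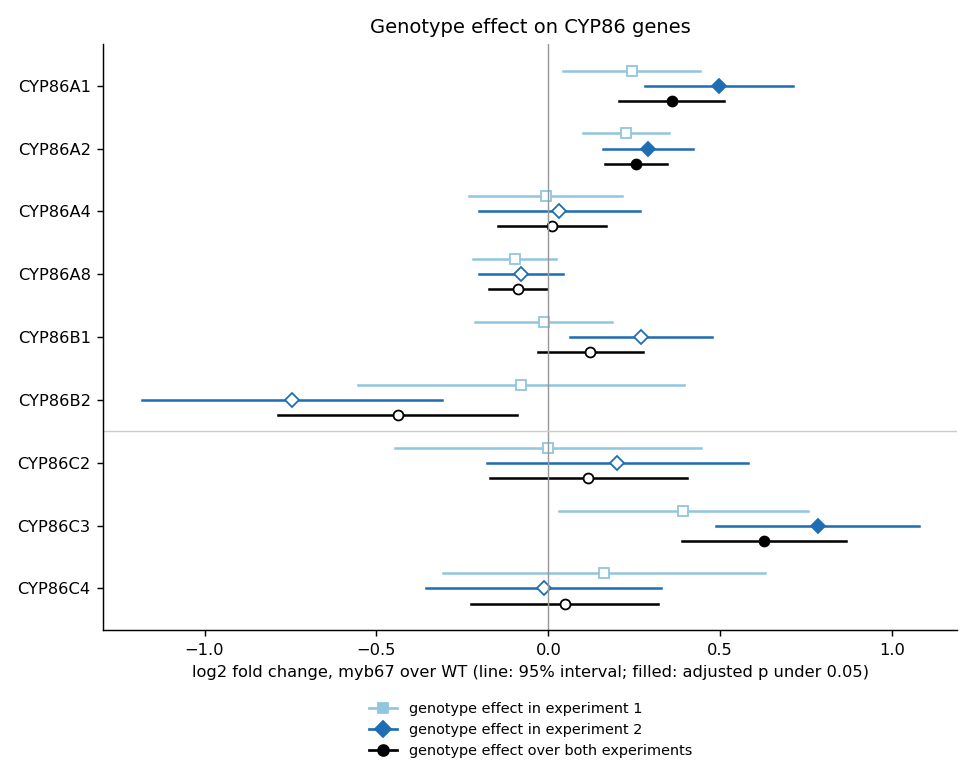
Log2 fold change of each tested CYP86 gene, libraries labelled myb67 over WT, in experiment 1, in experiment 2 and over both, with 95% intervals and filled symbols for an edgeR adjusted p under 0.05. Above the grey line are the 6 tested members, of which CYP86A1 and CYP86A2 carry filled symbols, and below it are the related CYP86C genes, of which CYP86C3 does.

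That CYP86A1 was called and CYP86B1 was not does not show that they differ, so the ratio of their counts was tested. The scaling of a library cancels in this ratio. CYP86A1 counts were 3.36 to 4.38 times those of CYP86B1 in WT and 4.26 to 5.20 times in libraries labelled myb67 of experiment 1. They were 4.59 to 5.64 and 5.27 to 6.71 times in experiment 2. On the log2 scale the mean ratio was 1.96 ± 0.17 in WT and 2.23 ± 0.12 in libraries labelled myb67 (SD, n = 6) in experiment 1, and 2.31 ± 0.11 and 2.54 ± 0.13 (SD, n = 5) in experiment 2. The ratio was higher in libraries labelled myb67 by 0.25 (two-sided exact permutation test within experiments, p = 3.18e-04, with 8.59e-06 the smallest p the design allows). This p is not adjusted for the other pairs of members. The pair was taken up for its calls in these same libraries, so the test is no independent support for them. The difference was 0.27 in experiment 1 and 0.23 in experiment 2, and 5 of 5 pairs of experiment 2 showed it. The ranges of the genotypes overlapped in each experiment, and WT of experiment 2 lay as high as libraries labelled myb67 of experiment 1.

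**Figure D4:**
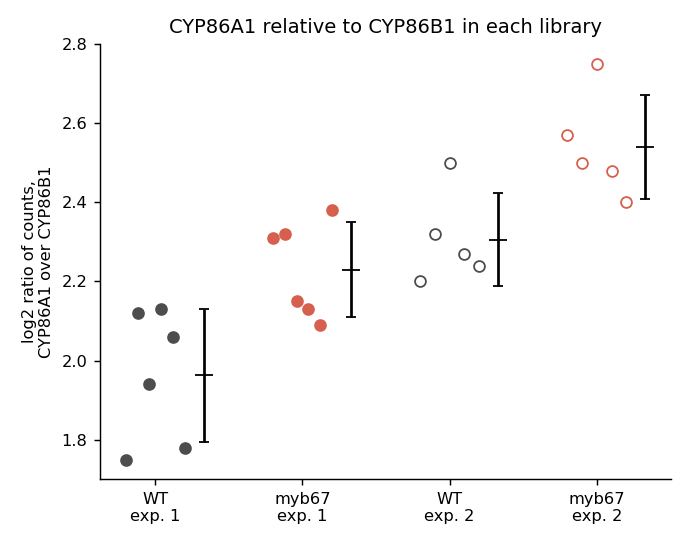
Log2 ratio of CYP86A1 to CYP86B1 counts in each library by genotype and experiment, with the mean and SD of each group (axis not from 0). The means rise from 1.96 in WT to 2.23 in libraries labelled myb67 in experiment 1, and from 2.31 to 2.54 in experiment 2.

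Between the experiments the tested members shifted in both directions. In WT, CYP86A4 was lower in experiment 2 than in experiment 1 (16.3 against 7.45 CPM, log2 difference -1.15, SE 0.11, edgeR adjusted p = 4.91e-09) and so was CYP86A2 (66.3 against 44.2 CPM, -0.58, SE 0.06, edgeR adjusted p = 3.19e-08). CYP86A1 was higher in experiment 2 by 0.45 (SE 0.10, edgeR adjusted p = 3.75e-04), and CYP86B2 by 0.59 (SE 0.21, edgeR adjusted p = 0.0164), a call lost without WT replicate 3 of experiment 2 (edgeR adjusted p = 0.0541). CYP86A8 was lower by a log2 difference of -0.15 (edgeR adjusted p = 0.0296), which was lost with upper quartile scaling (0.0521) and without WT replicate 3 or 5 of experiment 1 or WT replicate 4 of experiment 2 (0.0523 to 0.0890). CYP86B1 did not pass (0.11, edgeR adjusted p = 0.328). In all, 5 of 6 tested members were called, beside 70.8% of all genes, so most of the table differed. The experiments differed in how they were counted, with values in steps of 0.5 in experiment 1, so a difference of the plants cannot be told apart from that of sequencing and counting.

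Markers of other cell types moved with the experiment. From experiment 1 to experiment 2 the median summed WT level of 6 endodermis genes went from 249 to 49.3 CPM, that of 2 root hair genes from 94.8 to 9.83 CPM, that of 3 genes of the vascular and cork cambium from 129 to 399 CPM and that of 15 photosynthesis genes from 491 to 2760 CPM. Between the genotypes none of the 6 endodermis, 3 cambium, 4 xylem, 2 root hair or 14 tested photosynthesis genes was called over both experiments, and none of the marker genes was at 0 in every library. Of the 6 endodermis genes, 0 had a positive log2 fold change over both experiments (median -0.11). In experiment 1 the positive ones numbered 5 (median 0.13), and in experiment 2 they numbered 0 (median -0.48). Of 6 tested genes of the shoot epidermis and wax, 1 was lower over both, the wax transporter gene ABCG12 (log2 fold change -0.42, SE 0.10, edgeR adjusted p = 0.0221), and 0 of the 6 had a positive log2 fold change (median -0.30). In experiment 1 the photosynthesis genes CAB2, CAB3 and RBCS2B were called lower, and 0 of the 14 tested had a positive log2 fold change (median -1.11). In experiment 2 none was called and 12 of 14 had a positive one (median 0.23). WT replicates 4 and 5 of experiment 2 were low in CYP86A1 and CYP86B1. Their cambium sums were 326 and 339 CPM, against 399 to 499 CPM in the other WT libraries of that experiment. Their photosynthesis sums were 2270 and 2220 CPM, against 2760 to 3390 CPM. Under the mutant label the cambium sum was lowest in replicate 4 (377 CPM), where CYP86B1 was highest. The photosynthesis sum was lowest in replicate 5 (2870 CPM), where CYP86A1 was lowest, so no direction is given. The part of these markers in the CYP86 results was not tested. WT replicates 3 and 6 of experiment 1 held 1400 and 1970 CPM of photosynthesis genes, against 305 to 493 CPM in the other libraries of that experiment. Without these 2 libraries CYP86A1 had 0.34 (edgeR adjusted p = 0.0317) and CYP86A2 had 0.25 (edgeR adjusted p = 0.00449) over both experiments. Without the 3 libraries of fewest counts they had 0.40 (edgeR adjusted p = 0.00701) and 0.28 (edgeR adjusted p = 3.36e-04).

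The DNA before the 3 genes on which the genotype results turn is shown for the 250 bases that end just before the annotated gene start, 5′ to 3′ on the gene's strand, from RefSeq TAIR10.1. CYP86A1 and CYP86A2 were called in the same direction and CYP86B1 was not called. The capitals mark motif matches. The windows are chr5:23768112-23768361 on the minus strand for CYP86A1, chr4:160393-160642 on the plus strand for CYP86A2 and chr5:7805969-7806218 on the minus strand for CYP86B1.
CYP86A1: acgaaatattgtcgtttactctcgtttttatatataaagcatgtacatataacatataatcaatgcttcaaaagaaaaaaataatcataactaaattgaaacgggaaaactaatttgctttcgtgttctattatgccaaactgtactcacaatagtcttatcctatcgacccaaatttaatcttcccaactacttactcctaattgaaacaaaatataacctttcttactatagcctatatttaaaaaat
CYP86A2: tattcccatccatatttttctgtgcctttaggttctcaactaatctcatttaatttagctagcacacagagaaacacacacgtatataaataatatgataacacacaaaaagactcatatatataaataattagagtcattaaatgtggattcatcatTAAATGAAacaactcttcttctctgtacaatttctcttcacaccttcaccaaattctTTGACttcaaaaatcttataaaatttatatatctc
CYP86B1: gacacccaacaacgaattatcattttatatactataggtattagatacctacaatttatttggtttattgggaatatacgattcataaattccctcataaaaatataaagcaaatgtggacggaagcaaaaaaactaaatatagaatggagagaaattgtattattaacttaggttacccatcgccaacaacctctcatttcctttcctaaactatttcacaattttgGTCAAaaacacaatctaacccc
Motifs were searched on both strands in these windows and in the same window of 27437 genes. The AC elements, the letters known from binding of plant R2R3-MYB factors, were written as ACCTACC in 1 form, as ACCAACC in another and as ACCTAAC in the third. None of the 3 was found in any of the 7 members' windows, and at least 1 was found in 6.12% of all windows. The W-box core TTGAC, the letters bound by WRKY factors, stood once each in CYP86A2, CYP86A8 and CYP86B1, where it reads GTCAA on the gene's strand, and in 44.9% of all windows. The letters TAAATGNA, close to the L1 box of epidermal genes, stood once in CYP86A2 and in 9.91% of all windows, and they did not overlap its TTGAC. A match says only that the letters are there.

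The other genes of polyester synthesis that were called moved in both directions. For suberin synthesis and export, 21 genes besides the CYP86 genes were tested, and 3 were higher, 3 were lower and 15 did not pass over both experiments (median log2 fold change 0.13, against 0.00 over all genes tested). A positive log2 fold change was found in 16 of the 21. Of all genes tested, 1.5% were called in either direction. GPAT5, which joins hydroxylated acyl chains to glycerol for suberin, rose by 0.35 (SE 0.07, edgeR adjusted p = 0.00596), close in size to CYP86A1. The elongase gene KCS2, which lengthens the chains, rose by 0.78 (SE 0.13), and the transporter gene ABCG2 rose by 0.58 (SE 0.06). The reductase gene FAR1, which makes primary fatty alcohols, had a log2 fold change of -1.97 (SE 0.08). FACT, which joins caffeate to those alcohols, had -1.57 (SE 0.09), and the reductase gene FAR4 had -0.33 (SE 0.08, edgeR adjusted p = 0.0194, and 0.0538 without the 3 libraries of fewest counts). The other tested reductase gene of the list, FAR5, had 0.12 (SE 0.09, edgeR adjusted p = 0.959).

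Of 11 tested genes of cutin synthesis and export, 1 was called higher, none was called lower and 10 did not pass (median -0.22). A positive log2 fold change was found in 4 of the 11. GPAT6, known from the cutin of flowers, was the 1 called, and it rose by 0.76 (SE 0.11, edgeR adjusted p = 1.36e-04). GPAT4, whose gene lies 355 bases beyond the end of CYP86A4, had 0.15 (SE 0.08, edgeR adjusted p = 0.846), and its close relative GPAT8 had -0.22 (SE 0.07, edgeR adjusted p = 0.121). Of 12 suberin regulators, 4 were called higher, none was called lower and 8 did not pass (median 0.22), beside 1.5% of all genes called. A positive log2 fold change was found in 9 of the 12. The 4 called were the NAC factor genes NAC038 (0.55, SE 0.08) and NAC058 (0.38, SE 0.06), and the MYB factor genes MYB93 (0.31, SE 0.08) and MYB9 (0.33, SE 0.08). The calls of MYB93 and MYB9 were lost without 1 of 13 and of 7 libraries in turn (edgeR adjusted p up to 0.0658 and 0.0584). MYB93 was also lost without WT replicates 3 and 6 of experiment 1 (0.118), and MYB9 without the 3 libraries of fewest counts (0.0530). Neither of 2 tested cutin regulators was called.

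Among the other P450 genes, 1 of 3 tested CYP86C relatives was called. CYP86C3 rose by 0.63 (SE 0.12, edgeR adjusted p = 0.00221) from 2.08 to 2.60 CPM in experiment 1 and from 2.94 to 5.07 CPM in experiment 2. CYP86C2 had 0.12 (SE 0.14) and CYP86C4 had 0.05 (SE 0.13), and both had an edgeR adjusted p of 1. None of 9 tested fatty acid P450 genes of the CYP94, CYP704 and CYP77 families was called, of the 13 in that list. Its genes of the CYP96 and CYP703 families, and its genes CYP704A1 and CYP704B1, were too low to be tested. The reductase genes ATR1 and ATR2, which pass electrons to P450 enzymes, had -0.02 (SE 0.05) and 0.02 (SE 0.04). With no term for the experiment, the calls of CYP86C3, GPAT5, GPAT6, FAR4, MYB93, MYB9 and NAC038 were lost as well (edgeR adjusted p of 0.0907 to 1). None of the 13 tested neighbours that flank the members in the reference order, besides GPAT4, was called.

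The members were also compared with all other genes by how they varied from library to library. The measure was Pearson's r of the deviations of log2 CPM from each group's mean, over 22 libraries, which share depth and root make-up, among 20213 genes, and it is a description only. CYP86A1 was most like AT4G24140, an alpha/beta hydrolase (r 0.93), AT5G37690 (0.92) and AT2G23540 (0.89), both of the GDSL-type lipase and esterase family, AT2G03200, an aspartyl protease (0.89), and AT4G28940, of the phosphorylase family (0.88). Of all genes, 5% had an r above 0.43 with it. CYP86B1 was most like AT5G55360, a membrane-bound acyltransferase (0.92), the MYB factor gene MYB93 (0.90), the suberin transporter gene ABCG20 (0.88), the RING-type gene AT1G04360 (0.88) and AT5G44550 (0.88), with 5% of genes above 0.48. The values for CYP86A1 were 0.54 to 0.75 within experiment 1 and 0.93 to 0.98 within experiment 2, and for CYP86B1 they were 0.85 to 0.94 and 0.83 to 0.94. Between CYP86A1 and CYP86B1, r was 0.70 (Spearman's rho 0.60), with 0.43 in experiment 1, 0.85 in experiment 2 and 0.62 without the 2 libraries farthest from the median.

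The cuticle genes had other companions. CYP86A8 was most like the abscisic acid response factor gene ABF1 (r 0.84), the transporter gene OPT4 (0.84) and AT4G37190 (0.80). CYP86A4 was most like the cyclin gene CYCB2;1 (0.82), ATXR2 (0.80) and PAR1 (0.79). CYP86A2 was most like AT5G18390 (0.79), the syntaxin gene SYP121 (0.78) and the thioredoxin gene WCRKC2 (0.75), and CYP86B2 was most like AT4G32790 (0.89), AT5G63690 (0.89) and AT1G58590 (0.86). Taken over experiment 1 alone, the 3 correlations of CYP86B2 came to 0.92, 0.94 and 0.95, and over experiment 2 alone to 0.80, 0.71 and 0.34. Leaving out the 2 farthest libraries gave 0.76, 0.73 and 0.61. The companions of CYP86A8 ranged from 0.56 to 0.89 within experiment 1 and from 0.83 to 0.92 within experiment 2. Those of CYP86A4 ranged from 0.76 to 0.84 and from 0.80 to 0.88, and those of CYP86A2 from 0.79 to 0.85 and from 0.53 to 0.65. Between CYP86A2 and its nearest relative CYP86A4, r was -0.16, with -0.42 in experiment 1, 0.22 in experiment 2 and 0.07 without the 2 farthest libraries. Between CYP86B1 and CYP86B2 it was -0.17, with -0.57, 0.52 and 0.36, so neither pair kept its sign. CYP86A1 and CYP86A8 had 0.64, with 0.18, 0.83 and 0.52.

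The authors' deposited table gives log2 fold changes of 0.36 for CYP86A1 (adjusted p = 5.37e-04) and 0.26 for CYP86A2 (adjusted p = 1.81e-07). In the authors' deposited table CYP86A4, CYP86A8, CYP86B1 and CYP86B2 have 0.0095, -0.09, 0.12 and -0.38, with adjusted p values of 0.571 to 1, and CYP86A7 has no adjusted p.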

How the data were processed

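The 22 libraries are biological replicates per the labels. The submitters' processing notes list the build TAIR10 with STAR 2.7.10a, Trimmomatic 0.39, DESeq2 1.40.1, HOMER and FastQC. The authors deposited expected counts per gene in steps of 0.5 for experiment 1 (28.2% to 34.6% of values not whole) and whole counts for experiment 2, not normalized. Strand and multi-mapping are not given in the sources used here. The authors' deposited comparison holds a log2 fold change, an adjusted p-value and a mean signal of scaled counts.

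Experiment 1 values were rounded. Genes were kept by filterByExpr (21683), scaled by TMM and tested with the edgeR 4.0.16 quasi-likelihood F test, with the experiment as a term over both, or 4 group means, and the call was an adjusted p under 0.05 (Benjamini-Hochberg, whole table). The SE divides a log2 fold change by the root of its F. WT replicate 1 of experiment 1 had a TMM factor of 0.709, the others 0.982 to 1.05. The lowest chi-square per gene between replicates was 2.149, so none was a duplicate. WT replicate 1 of experiment 1 stood apart, at 117.5 to 249.9 with the other WT libraries of that experiment. Those had 3.501 to 12.21 among themselves. Its endodermis markers summed to 503 CPM, against 207 to 284 CPM in those libraries. Ratios used a prior count of 0.5. Named genes were the members, genes of the pathway lists called over both experiments, MYB67, GPAT4, GPAT5, GPAT8, neighbours and, by likeness, the 5 nearest genes to CYP86A1 and CYP86B1 and 3 to each other member. ABCG12, FAR5, CAB2, CAB3 and RBCS2B were named after their values were seen. The members and lists were chosen with earlier results of these data known. Coordinates and sequences are from RefSeq TAIR10.1, which holds 32835 of the 33323 identifiers.

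Same-numbered libraries deviated together across genes in experiment 2 (correlation 0.285 to 0.671) and not in experiment 1 (-0.158 to 0.0430). Some differently numbered libraries of experiment 2 did so too. WT replicate 3 had 0.392 with replicate 1 labelled myb67, and WT replicate 4 had 0.340 with replicate 5 labelled myb67. The numbers were taken to pair libraries in experiment 2, although for replicate 5 the correlations do not single out the same-numbered pair (0.285). On simulated data for both experiments together, 77% of the 1.5-fold and 99% of the 2-fold changes were recovered. At 1.5-fold, 63% were recovered in experiment 1 and 68% in experiment 2. Changes below 1.5-fold, such as those of the called members, were not simulated, so recovery at their size is not known. Alternatives were RLE and upper quartile scaling, no filter, DESeq2 1.42.0, limma-voom (limma 3.58.1), no rounding, a replicate block, each experiment alone, no experiment term and leaving out libraries. R was 4.3.3 and Python 3.11.15.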

Additional observations from a re-analysis of the deposited data

Results flagged for a closer look

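Of 32 group values checked, 2 had a library far from the others of its group. The rule flags about 1 in 20 by chance, so this is no clear excess. CYP86B1 in WT of experiment 1 was at 84.5 CPM in replicate 1 and at 57.7 to 66.3 CPM in the other 5 libraries. That library had the fewest counts and the lowest TMM factor (0.709), and without TMM scaling its CYP86B1 level was 59.9 CPM. Its level without TMM scaling was 202 CPM for CYP86A1, rather than 285, and 53.7 CPM for CYP86A2, rather than 75.8. CYP86A7 in libraries labelled myb67 of experiment 1 was at 0.0904 CPM in replicate 1, which is 1 count, and at 0 in the other 5. Any count in 1 library with 0 in the rest is flagged by this rule.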

How the results depend on the processing

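The calls of CYP86A1 and CYP86A2 over both experiments held under 10 of 11 alternatives and in each of the 22 fits without 1 library, and the ratio of CYP86A1 to CYP86B1 held under 5 of 5 alternatives (without 1 library, 0.22 to 0.27; with the replicate block, 0.25 and exact permutation p = 4.06e-04). Of the counts of called genes, no experiment term gave 83 over both (without 1 library, 289 to 327). Experiment 1 gave 272 by DESeq2, 231 and 280 with the replicate block in both experiments and in experiment 2 only, and 81 without WT replicates 3 and 6 (without 1 library, 104 to 170). Experiment 2 gave 980 (301 higher, 679 lower) and 1050 (326 higher, 724 lower) with these blocks, against 135 higher and 153 lower of 288 without, and 136 on its own. Without 1 library it gave 192 to 509, the highest without WT replicate 1 of experiment 2. The difference between experiments gave 43 by DESeq2, 6 by limma-voom, 516 and 573 with the blocks, 6 without the 3 libraries of fewest counts and 8 without WT replicates 3 and 6 (without 1 library, 10 to 23). The WT difference gave 14706 to 15295 without 1 library. Besides that of CYP86B2 in experiment 2, the replicate block changed no call of a member. Uncalled values changed sign near 0. Over both experiments CYP86A4 had -0.01 without WT replicates 3 and 6. In experiment 1, CYP86A4 had 0.0036 and CYP86B2 0.01 with the replicate block in both experiments, and CYP86B1 had 0.02 by limma-voom and 0.04 without the 3 libraries of fewest counts. Without 1 library, CYP86A4 ran from -0.03 to 0.04 over both, -0.08 to 0.05 in experiment 1, -0.04 to 0.10 in experiment 2 and -0.03 to 0.11 for the difference, CYP86A8 from -0.02 to 0.05 for the difference, and in experiment 1 CYP86B1 from -0.05 to 0.05 and CYP86B2 from -0.20 to 0.01. The cause was not tested. Depth limits CYP86A7, at no more than 6 counts, and CYP86B2 in WT replicate 1 of experiment 1.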
